A study of Homo sapiens with 73 samples.

Results

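The first exposure of CHLA-9 cells to VDC was examined in 9 of the 73 RNA libraries of the series: 6 treated libraries (lineages R1, R2, R3, R4, R6 and R7) and 3 DMSO libraries (lineages R8, R9 and R10), all of time point 1. They were chosen by arm and time point, not by their values. CHLA-9 is a cell line established from Ewing sarcoma, a tumour of bone and soft tissue driven by the EWSR1-FLI1 fusion gene. VDC combines vincristine, which binds tubulin, doxorubicin, which traps topoisomerase II on DNA, and cyclophosphamide, which alkylates DNA. Treated lineages received the drugs for 5 days at the dose giving 70% effect and were then grown without drug to 80 to 90% confluency before RNA was taken, so the libraries describe cells that had regrown. DMSO lineages received the solvent. The untreated parental line, with 1 library, is used beside them, as are the 3 DMSO libraries of time point 2. Library names begin with VDC at time point 1 and with EC, the label of another drug course, at time point 2. All lineages came from the same cell line, and a p-value therefore measures the spread between cultures of 1 line. Treated lineage R5 has no library at this time point, and 1 library per lineage leaves no technical replicate.

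Double-strand breaks and stalled forks left by doxorubicin and cyclophosphamide activate ATM, ATR and the transcription factor p53. p53 raises CDKN1A, which encodes the cyclin-dependent kinase inhibitor p21, together with genes for apoptosis and DNA repair, and p21 lowers the transcription of mitosis genes while it is present. EWSR1-FLI1 holds genes of mesenchymal cells low and activates others, such as NR0B1.

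The deposited values are quantile-normalized counts, so library depth is unknown. Treated columns share 1 total, 13583520, and DMSO and parental columns another, 13582508, so each arm had been set to a distribution of its own. Differences are given on the scale log2(value + 1), which understates those of low genes, and a gene was called at a Benjamini-Hochberg adjusted p under 0.05 in limma. Of 11 Ewing sarcoma markers, 10 had a median of at least 10 in the 9 libraries, and the exception was CD99, listed at 1.28 at most. How reads that map to more than 1 place were counted is not given in the sources used here, so the CD99 value is not read as absence. Among markers of other cells, 10 of 13 epithelial, 8 of 12 blood cell and 5 of 7 endothelial genes had medians under 10, and KRT5 and GRHL2 were listed at 0.0262 at most. The summed epithelial markers were 162.9 to 215.3 in treated libraries and 71.1 to 167.7 in DMSO libraries. KRT17 alone made up 88.2 to 136.7 of the treated sums and 91.7, 16.4 and 24.4 of those of DMSO R8, R9 and R10. The part of these markers in the results was not tested.

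The library labelled DMSO R8 stood apart from the other DMSO libraries. Its root mean square log2 distance was 0.346 ± 0.0286 to the treated libraries other than R1 (SD, n = 5), against 0.578 and 0.580 to DMSO R9 and R10. Treated libraries other than R1 lay 0.298 ± 0.0154 from each other (SD, 10 pairs), and DMSO R9 lay 0.262 from DMSO R10. The library labelled DMSO R8 lay 0.571 from treated R1. The distances thus placed it nearer to each of the 6 treated libraries than to its own arm, by little in the case of R1. The same lineage at time point 2 lay 0.273 from DMSO R9 and R10 of time point 1 and 0.567 from its own earlier library. Results are therefore given with all 9 libraries and without this one, and the second choice was made with its resemblance to the treated libraries known. The files do not settle whether the label of this library is right, and every value without it depends on that.

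**Figure D1:**
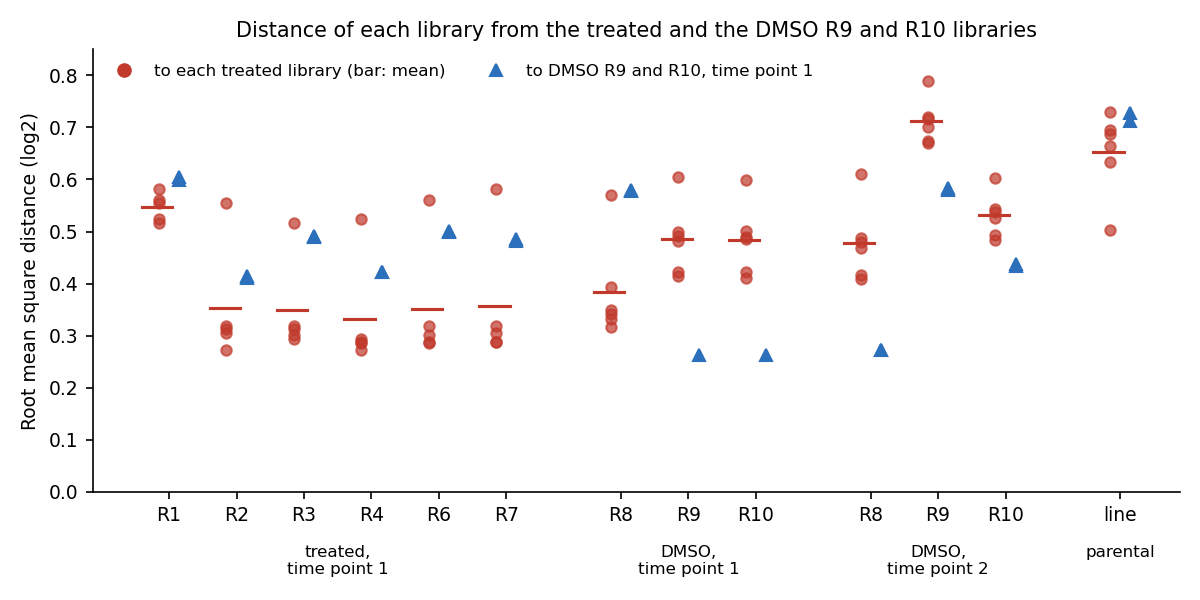
Root mean square log2 distance (y axis) of each library (x axis) to each treated library (red circles, bar at the mean) and to DMSO R9 and R10 of time point 1 (blue triangles). The library labelled DMSO R8 lies 0.317 to 0.393 from 5 treated libraries and 0.578 and 0.580 from DMSO R9 and R10, and treated R1 lies 0.517 to 0.582 from the other treated libraries.

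Treated R1 was the second library to stand apart. It lay 0.548 ± 0.0269 from the other 5 treated libraries (SD, n = 5), and 0.502 from the parental library, the smallest distance of any treated library from that line. In R1, 35 genes were more than 2 log2 units above the median of the other treated libraries and 78 were more than 2 units below it. Examples chosen after their values were seen are CAV1, which encodes the caveolar protein caveolin-1, at 2711 in R1 and 240.1 to 626 in the other treated libraries, and PURPL, a long noncoding RNA induced by p53, at 43.0 in R1 and 1693 to 2627 in the others. The parental library had 3200 for CAV1 and 160.5 for PURPL. The median SD of a gene was 0.164 log2 units over the 6 treated libraries, 0.114 without R1, 0.183 over the 3 DMSO libraries and 0.0654 over DMSO R9 and R10.

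With all 9 libraries, no gene passed the test. Of 14370 genes tested, 0 were called (0%), the smallest adjusted p was 0.581, and 1195 (8.32%) had an unadjusted p under 0.05. The 6 treated values lay wholly above the 3 DMSO values for 195 genes (1.36%) and wholly below them for 224 (1.56%). Random labels would separate a gene in a given direction with a share of 0.0119 (84 splits), near both values. Without DMSO R8, 1872 of 14344 genes were called (13.1%), of which 979 were higher in treated libraries (6.83%) and 893 lower (6.23%), and 4339 (30.2%) had an unadjusted p under 0.05. Among the called genes, 190 were higher and 64 lower by more than 1 log2 unit, and the median size of a called difference was 0.491. The count moved with the libraries used: it was 4903 without treated R1, 1237 without treated R4 and lower still without DMSO R9 or R10. It was 0 where the spread came from all treated and DMSO libraries of the series except DMSO R8 of time point 1. Leaving out DMSO R9 or R10 here and below leaves 1 DMSO library, which is assumed to vary like the treated ones, so such a count also rests on fewer samples.

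Genes were named from this fit only where the arms did not overlap with every library in place, so their separation is not a result. None passed the test. PIF1, a DNA helicase, had 304, 320 and 346 normalized counts in treated libraries (lowest, median and highest), against 276.6 in DMSO R8, 159 in R9 and 162 in R10. The lowest treated value lay above all 3 DMSO values, as the naming rule required. Its log2 difference was 0.74 with all 9 libraries (adjusted p = 0.581) and 1.00 ± 0.092 (SE) without DMSO R8 (adjusted p = 0.000514). POC1A, a centriole protein, had 329, 353 and 413 in treated libraries, against 297.1, 239.4 and 207.4 in DMSO R8, R9 and R10, and CENPU, a centromere protein, had 712, 734 and 796, against 650.5, 529.8 and 552.7. Both had smaller gaps to DMSO R8 than to the other DMSO libraries. UAP1L1, STRIP2, ZNF878, ZNF695, ZDHHC11, STXBP5L and PGAP6 were the other genes of smallest p on this side, with log2 differences of 0.41 to 1.43 in the fit of 9 libraries.

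On the lower side, MACROD2, which removes ADP-ribose from proteins, had 53.6, 64.2 and 73.4 in treated libraries, against 93.6, 97.0 and 117.4 in DMSO R8, R9 and R10. Here the library labelled DMSO R8 lay with its own arm, as the naming rule required. The log2 difference was -0.70 with all 9 libraries (adjusted p = 0.581) and -0.76 ± 0.17 without DMSO R8 (adjusted p = 0.0174). MACROD1, of the same enzyme family, differed by -0.27 and -0.29 (adjusted p = 0.581 and 0.0202), and FMOD, a collagen-binding proteoglycan, by -0.31 and -0.38 (adjusted p = 0.581 and 0.00719). RBM33-DT, RMDN2, PRCP, CFAP54, NMD3, ZNF835 and RPL41 made up the rest, at -0.79 to -0.32 with all 9 libraries.

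Of 28 p53 target genes kept, 19 were higher and 1 was lower in treated libraries without DMSO R8, and 0 were called with all 9. The shares without DMSO R8 were 67.9% and 3.57%, against 6.83% and 6.23% over all genes tested. Their median log2 difference was 0.814, against -0.0115 over all genes tested, and 0.533 with all 9 libraries. CDKN1A (chromosome 6, 36676460 to 36687339 of GRCh38) had 510, 874 and 1387 normalized counts in treated libraries, against 1229 in DMSO R8, 53 in R9 and 71.2 in R10, and 880 in the parental library. Treated values exceeded those of DMSO R9 and R10 in 6 of 6 libraries, which the naming rule for large differences required. Such separation without DMSO R8 held for 16.1% of all genes tested on the higher side. For CDKN1A, DMSO R8 lay inside the treated range. The log2 difference was 3.79 ± 0.28 without DMSO R8 (adjusted p = 0.000265) and 2.35 with all 9 libraries (adjusted p = 0.581). Without DMSO R8, the adjusted p was 0.119 where the spread came from all other treated and DMSO libraries of the series.

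Other p53 targets named by their size moved in the same libraries. PLK2, a kinase of centriole duplication, had 5.89, 16.3 and 25.6 in treated libraries, against 13.3, 0.645 and 1.10 in DMSO R8, R9 and R10 (log2 difference 3.07 ± 0.50 without DMSO R8, adjusted p = 0.00463). SPATA18, a mitochondrial quality control protein, had 4.74, 13.6 and 32.0, against 11.3, 1.19 and 0.0144 (3.20 ± 0.69, adjusted p = 0.0154). Both genes are low in the table, DMSO R9 and R10 lay near 0, and the size depends on the pseudocount: 1.21 and 1.18 with a pseudocount of 10, where SPATA18 lost its call, and 3.94 and 5.03 with 0.1. BAX, a pore-forming protein of apoptosis, had 919.5, 1183 and 1318 in treated libraries, against 1292, 589.8 and 564.8 (1.00 ± 0.11, adjusted p = 0.00141). BBC3, which encodes the BAX activator PUMA, differed by 1.02 ± 0.21 (adjusted p = 0.0123). ZMAT3, DDB2, PHLDA3, AEN, FDXR, XPC, TNFRSF10B, TP53INP1, EDA2R, PPM1D, SESN1, TIGAR, SESN2 and GADD45A were the other members called higher. MDM2, the ubiquitin ligase that p53 induces and that degrades it, did not pass: it had 2161, 2220 and 2646 in treated libraries, against 2138, 2074 and 2093 (0.14 ± 0.079, adjusted p = 0.272). BTG2, an antiproliferative gene, was the member called lower, at -0.34 ± 0.089 (adjusted p = 0.0340), and its difference was 0.089 against the DMSO libraries of time point 2. Leaving out DMSO R9 or DMSO R10 as well as R8 left 6 members called higher in either case, with medians of 0.774 and 0.86.

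Genes outside the list stood beside these among the largest higher differences. EDA2R, a list member and a receptor of the tumour necrosis factor family, had 20.04, 187.8 and 248.3 in treated libraries, against 243.2, 12.1 and 18.3 in DMSO R8, R9 and R10. Its lowest treated value was that of R1, and the next lowest was 133.4. TNFRSF10D, a decoy receptor for TRAIL, had 86.6, 181.5 and 202.7, against 239, 25.5 and 31.0 (2.5 ± 0.28, adjusted p = 0.00141), again with R1 lowest. DRAM1, a lysosomal protein of autophagy, had 46.8, 55.7 and 90.5, against 83.2, 4.64 and 9.63 (2.96 ± 0.31, adjusted p = 0.00102). NID1, a basement membrane protein, had 17.2, 41.3 and 56.9, against 87.4, 1.19 and 6.23 (3.26 ± 0.49, adjusted p = 0.00355), and 3.55 in the parental library. SSTR1, a somatostatin receptor, differed by 3.43 ± 0.43 (adjusted p = 0.00180), with 1.36 at a pseudocount of 10, 5.16 at 0.1 and 1.54 against the DMSO libraries of time point 2, and TRPM8, a cold-sensing channel, by 2.65 ± 0.40 (adjusted p = 0.00348).

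Promoters, as 250 bases before to 50 after each gene's start, were searched for the p53 half-site, a motif of 10 letters that reads alike on both strands. It was present in 3 of the 23 p53 target promoters in RefSeq (13%), against 586 of 11124 promoters of all genes tested (5.27%), 52 of 754 of genes called higher (6.9%), 37 of 723 of genes called lower (5.12%) and 8 of 51 of ribosomal protein genes (15.7%). The 3 promoters are those of PLK2, AEN and FDXR, genes called higher, and 100 bases of each are shown, from 180 to 81 before the start for PLK2 and directly before it for AEN and FDXR, with the half-site in capitals (RefSeq, GRCh38.p14, gene strand). The windows are chr5:58460167-58460266 (minus strand), chr15:88621240-88621339 (plus) and chr17:74872995-74873094 (minus). AEN encodes an exonuclease of apoptosis and FDXR ferredoxin reductase of mitochondria.
PLK2: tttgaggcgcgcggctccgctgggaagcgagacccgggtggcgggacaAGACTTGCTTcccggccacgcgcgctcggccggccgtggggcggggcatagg
AEN: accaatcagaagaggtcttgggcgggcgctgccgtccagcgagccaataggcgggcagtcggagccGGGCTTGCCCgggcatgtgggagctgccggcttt
FDXR: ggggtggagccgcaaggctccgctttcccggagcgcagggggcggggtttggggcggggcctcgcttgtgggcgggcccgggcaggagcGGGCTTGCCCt
A match describes letters in this window only.

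**Figure D2:**
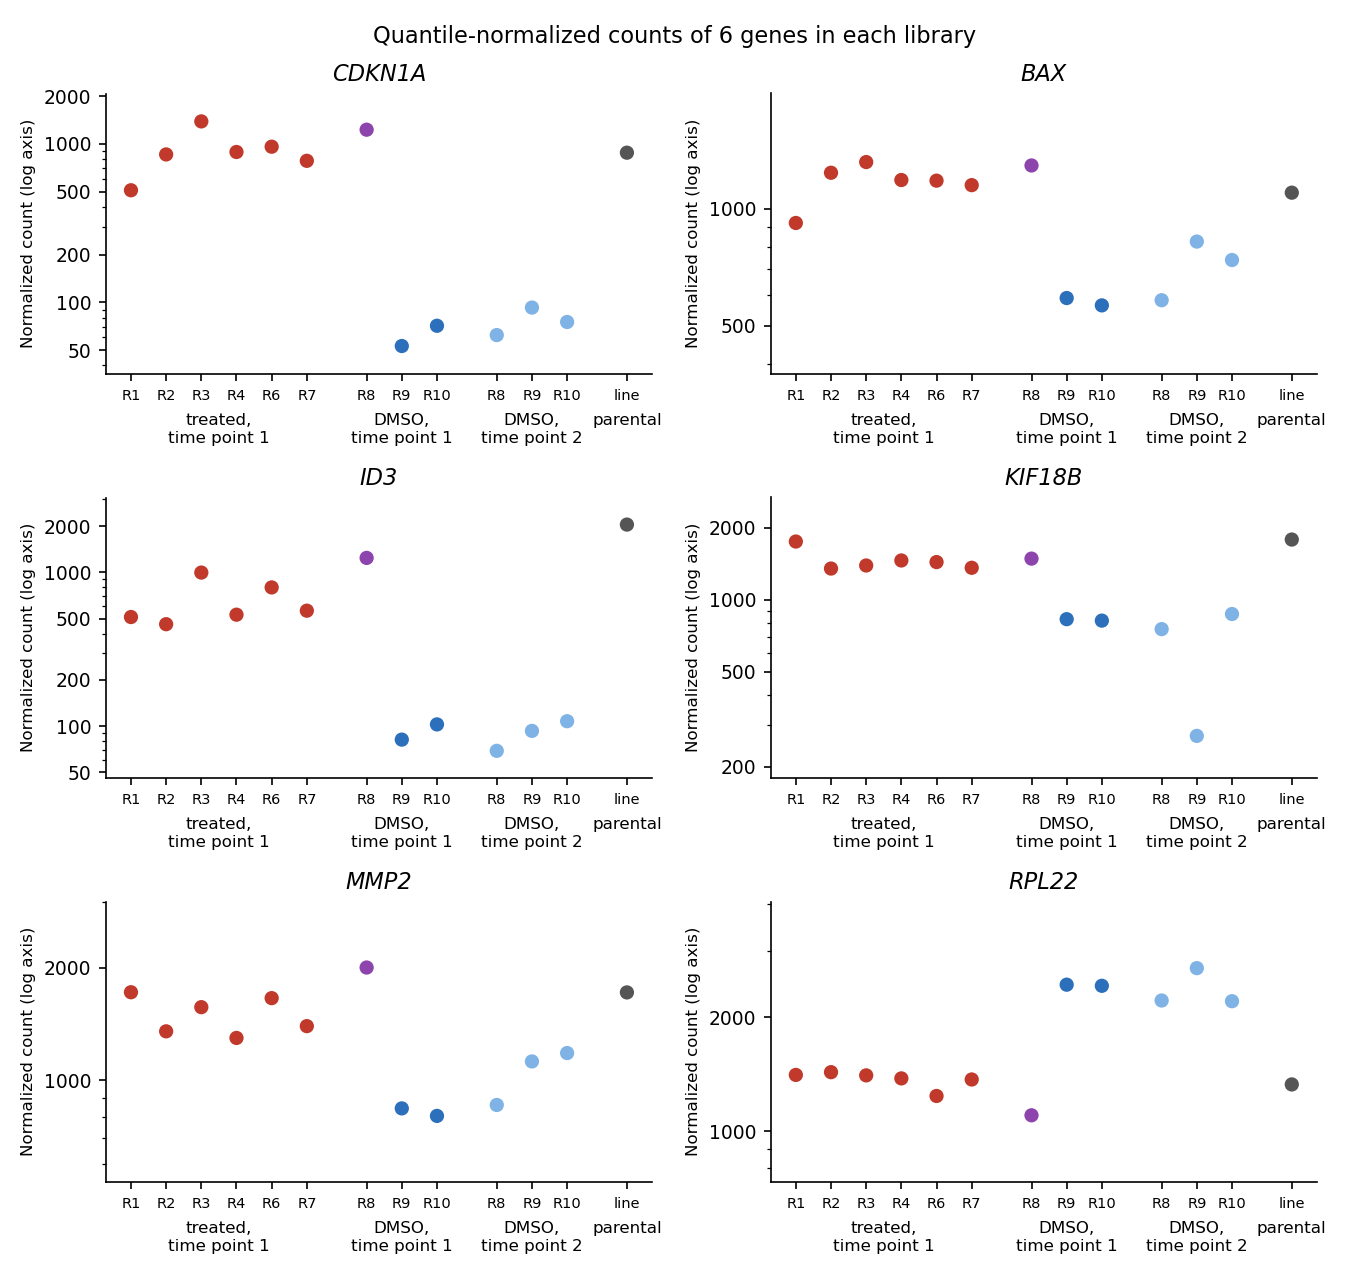
Quantile-normalized counts (y axis, log scale) of CDKN1A, BAX, ID3, KIF18B, MMP2 and RPL22 in each library (x axis; red, treated; purple, DMSO R8 of time point 1; dark blue, DMSO R9 and R10; light blue, DMSO at time point 2; grey, parental line). In all 6 panels DMSO R8 of time point 1 and the parental library lie on the treated side of DMSO R9 and R10, as with 1229 and 880 for CDKN1A against 53 and 71.2.

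Genes of mitosis were higher in the treated libraries as well. Of 37 G2/M and mitosis genes, 23 were called higher and 0 lower without DMSO R8, and 0 with all 9 libraries. The share called higher was 62.2%, against 6.83% over all genes tested. All 37 had positive differences, with a median of 0.612 (0.408 with all 9). KIF18B, a kinesin of spindle microtubules (chromosome 17, 44924709 to 44947711), had 1353, 1417 and 1755 in treated libraries, against 1489, 830.2 and 818.7 in DMSO R8, R9 and R10 (0.82 ± 0.094, adjusted p = 0.00143). AURKA, a spindle pole kinase, had 453, 489.9 and 806.7, against 460.8, 302.3 and 304.1 (0.80 ± 0.18, adjusted p = 0.0195). For both genes R1 was the highest treated library. MKI67, the proliferation marker, had 9469, 9821 and 14661 in treated libraries, against 10270, 6658 and 6674, and 12632 in the parental library (0.67 ± 0.15, adjusted p = 0.0167). The list is read as a level in bulk RNA, where more cells in division and more of this RNA per cell cannot be told apart. CDKN1A and mitosis genes were thus both higher in the same libraries, although R1 had the lowest CDKN1A and the highest mean level of the mitosis list among the treated, at 10.52 log2 units against 9.93 to 10.03 in the others. Leaving out DMSO R9 or DMSO R10 as well as R8 left 2 of the list called in either case, with medians of 0.598 and 0.658.

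The CHR, a motif (TTTGAA, searched on both strands) of promoters active in late cell cycle, was present in 21 of the 30 mitosis gene promoters in RefSeq (70%), against 1135 of 11124 promoters of all genes tested (10.2%). Among genes called in the fit without DMSO R8 it was in 130 of 754 promoters of those higher (17.2%) and 68 of 723 of those lower (9.41%). The 100 bases before the start are shown for a cyclin, CCNB2 (chr15:59105046-59105145, plus strand), a kinase, PLK1 (chr16:23678789-23678888, plus), MKI67 (chr10:128126424-128126523, minus) and a chromosome-associated kinesin, KIF4A (chrX:70290004-70290103, plus), 4 genes called higher, with the CHR in capitals.
CCNB2: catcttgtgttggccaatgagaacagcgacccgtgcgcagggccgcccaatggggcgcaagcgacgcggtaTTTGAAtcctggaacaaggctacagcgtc
PLK1: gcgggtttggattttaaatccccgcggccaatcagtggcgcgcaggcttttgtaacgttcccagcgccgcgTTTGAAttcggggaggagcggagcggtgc
MKI67: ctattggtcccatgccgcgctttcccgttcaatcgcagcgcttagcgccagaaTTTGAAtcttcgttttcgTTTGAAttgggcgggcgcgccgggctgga
KIF4A: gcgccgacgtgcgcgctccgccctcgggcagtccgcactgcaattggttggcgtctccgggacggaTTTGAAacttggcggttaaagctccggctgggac
The MKI67 window holds the motif at 2 places.

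Replication, repair and checkpoint genes followed to a smaller degree. Of 42 G1/S and replication genes, 14 were called higher and 0 lower without DMSO R8 (median 0.264). These shares were 33.3% and 0%, against 6.83% and 6.23% over all genes tested. POLA2, a subunit of the priming polymerase, differed by 0.80 ± 0.11 (adjusted p = 0.00243) and CCNE1, the cyclin of S phase entry, by 0.69 ± 0.18 (adjusted p = 0.0320). Of 34 homologous recombination and Fanconi genes, 12 were called higher and 2 lower (35.3% and 5.88%, median 0.241). FANCA, of the core complex for crosslink repair, had 700.6, 947.9 and 1166 in treated libraries, against 1252, 519.8 and 499.9 in DMSO R8, R9 and R10 (0.90 ± 0.15, adjusted p = 0.00590). The 2 members called lower were FANCF, of the same complex, at -0.50 ± 0.12 (adjusted p = 0.0265), and SLFN11, a protein that blocks stressed replication forks, at -0.27 ± 0.063 (adjusted p = 0.0210). Of 21 checkpoint genes, 7 were called higher and 1 lower (33.3% and 4.76%). CDC25C, a phosphatase of mitotic entry, differed by 0.77 ± 0.17 (adjusted p = 0.0177) and CLSPN, an adaptor of CHK1 activation, by 0.63 ± 0.10 (adjusted p = 0.00478). End joining, excision and mismatch repair genes were called in both directions, 4 and 4 of 36 (11.1% each way). In that list POLQ, the polymerase of theta-mediated end joining, was higher by 0.88 ± 0.11 (adjusted p = 0.00207), and LIG4, the ligase of classical end joining, differed by -0.63 ± 0.10 (adjusted p = 0.00526). Without treated R1, 24 of the replication and 23 of the recombination genes were called higher, against 3 of the replication and 1 of the recombination genes without DMSO R9 and 1 of each without DMSO R10.

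Targets and handling genes of the 3 drugs were called in shares of 0 to 18.2% higher and 0 to 9.52% lower in each list, against 6.83% and 6.23% over all genes tested. TOP2A, the topoisomerase of dividing cells that doxorubicin traps, had 7210, 7816 and 11044 in treated libraries, against 7394, 5330 and 5549 in DMSO R8, R9 and R10 (0.60 ± 0.13, adjusted p = 0.0175). R1 was the highest, and DMSO R8 lay inside the treated range. TOP2B, the other topoisomerase II, differed by 0.01 ± 0.067 (adjusted p = 0.919). TOP3A was the second of 11 topoisomerase and adduct repair genes called higher, at 0.32 ± 0.075 (adjusted p = 0.0224). Of 21 tubulins and microtubule regulators, KIF2C and TUBB6 were called higher (0.60 ± 0.14 and 0.60 ± 0.077) and 2 genes lower, among them TUBA1A at -0.51 ± 0.082 (adjusted p = 0.00479). TUBB3, a neuronal tubulin, differed by 0.08 ± 0.16 (adjusted p = 0.792). None of the 14 efflux and uptake transporters kept was called: SLC22A4, a carnitine and cation carrier, differed by 0.82 ± 0.25 (adjusted p = 0.0572) and SLC22A16, a carnitine carrier that takes up doxorubicin, by -0.60 ± 0.20 (adjusted p = 0.0759). ABCB1, the efflux pump P-glycoprotein, did not reach a mean of 10. Of 24 aldehyde, glutathione and anthracycline genes, 0 were higher and 2 lower, the glutathione transferases GSTM2 (-0.56 ± 0.11, adjusted p = 0.00913) and GSTA4 (-0.44 ± 0.073, adjusted p = 0.00548). ALDH1A1, an aldehyde dehydrogenase, had 99.04 in R1 and 17.6 to 28.65 in the other treated libraries, against 32.3, 9.99 and 14.2 (1.29 ± 0.52, adjusted p = 0.125), and GSTP1 differed by 0.09 ± 0.078 (adjusted p = 0.475). HMOX1, the heme oxygenase, was the member of 16 NRF2 targets called higher, at 1.39 ± 0.19 (adjusted p = 0.00256), and TKT, of the pentose phosphate pathway, the one called lower, at -0.28 ± 0.071 (adjusted p = 0.0312). Of 22 BCL2 and IAP family genes, BAX and BBC3 were higher and CASP9, an initiator caspase, differed by -0.57 ± 0.12 (adjusted p = 0.0140).

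**Figure D3:**
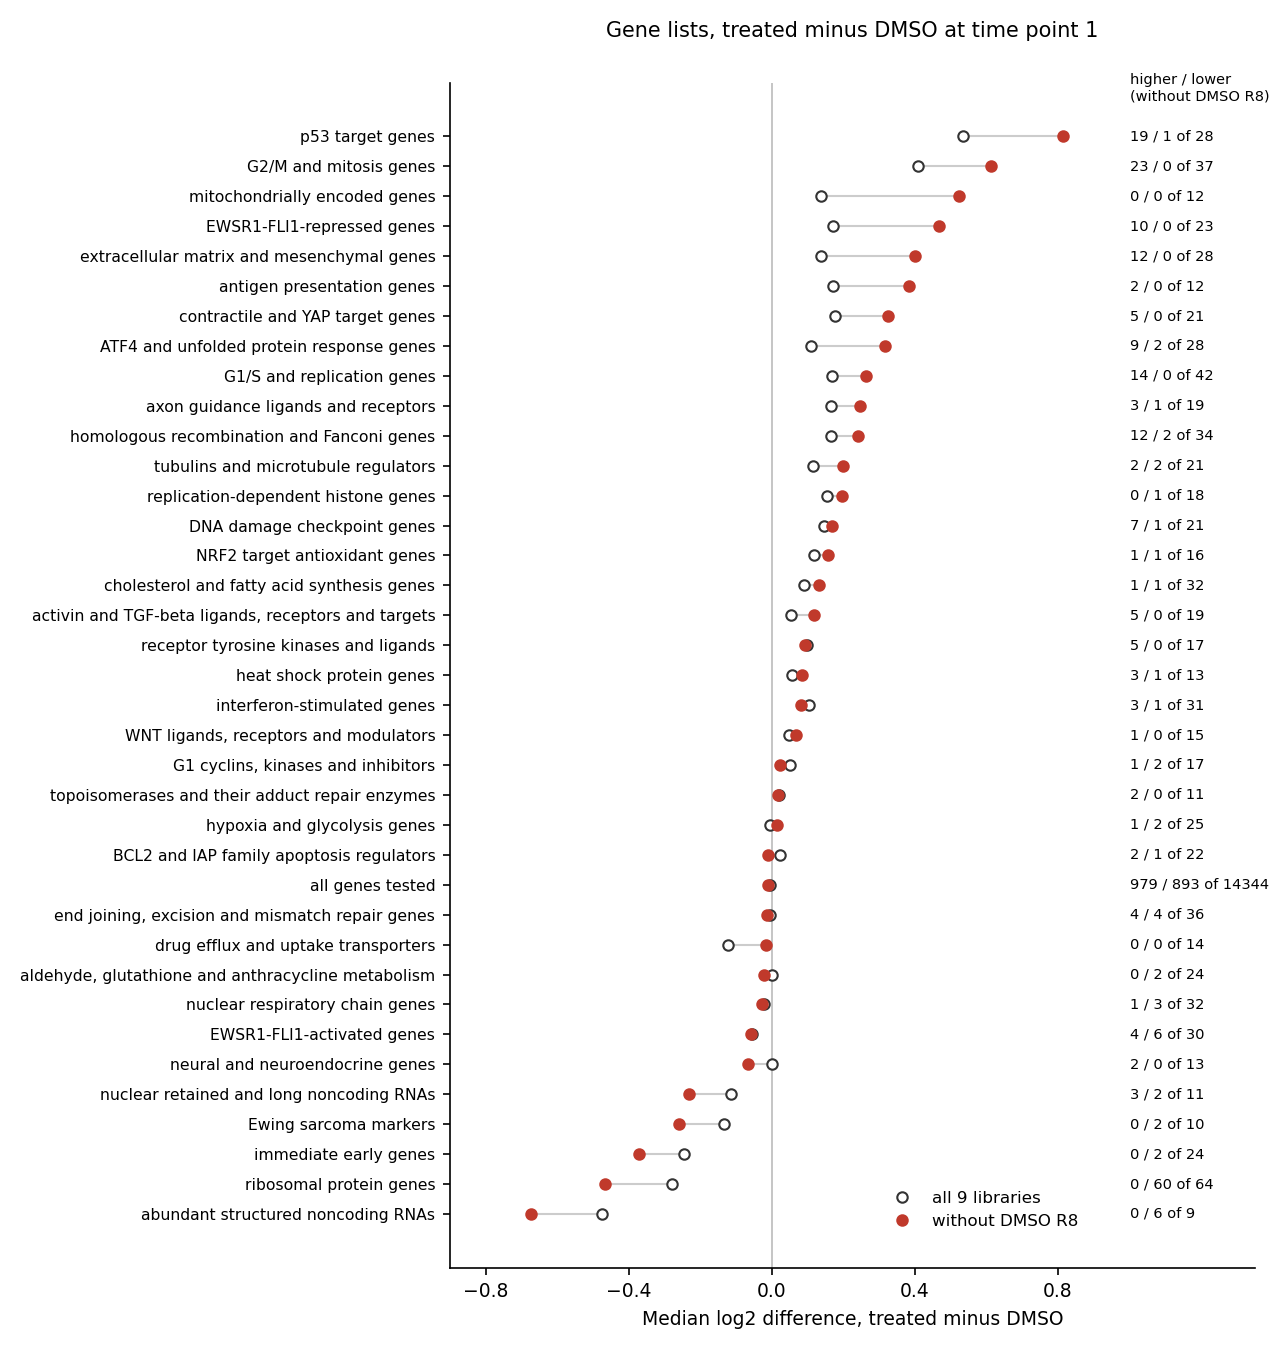
Median log2 difference, treated minus DMSO (x axis), of each list with at least 9 kept genes and of all genes tested, with all 9 libraries (open circles) and without DMSO R8 (red), with the number called higher and lower without DMSO R8 at the right. p53 target genes lie highest at 0.814 and structured noncoding RNAs lowest at -0.673, and with all 9 libraries 0 genes were called in every list.

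Neither partner of the fusion passed the test against DMSO R9 and R10. EWSR1 differed by 0.10 ± 0.052 (adjusted p = 0.234) and FLI1, in whose row FLI1 and the FLI1 part of the fusion cannot be told apart, by -0.08 ± 0.086 (adjusted p = 0.589). Of 30 genes activated by the fusion, 4 were called higher and 6 lower (median -0.0592). These shares were 13.3% and 20%, against 6.83% and 6.23% over all genes tested. NR0B1, a nuclear receptor, had 2255, 2360 and 2543 in treated libraries, against 2234, 2959 and 2924 in DMSO R8, R9 and R10 (-0.30 ± 0.059, adjusted p = 0.0105). PPP1R1A, a phosphatase inhibitor, differed by -0.45 ± 0.069 (adjusted p = 0.00380), and GLI1, a Hedgehog effector, was higher by 1.31 ± 0.38 (adjusted p = 0.0445). Of 23 genes repressed by the fusion, 10 were called higher and 0 lower (43.5% and 0%, median 0.466). TAGLN, an actin-binding protein of smooth muscle, had 53.6, 101.2 and 181 in treated libraries, against 209.5, 26.9 and 46.6 in DMSO R8, R9 and R10 (1.54 ± 0.39, adjusted p = 0.0293). THBS1, a matrix glycoprotein, differed by 1.47 ± 0.24 (adjusted p = 0.00459). In the case of TAGLN the library labelled DMSO R8 had the highest value of the 9. The 10 repressed genes became 6 without treated R6 and 1 without DMSO R9 or R10, and the 6 activated genes called lower became 12 without treated R1 and 0 or 1 without DMSO R9 or R10.

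Matrix and mesenchymal genes moved the same way. Of 28 kept, 12 were called higher and 0 lower (42.9% and 0%), against 6.83% and 6.23% over all genes tested. The median was 0.401, and 0.136 with all 9 libraries. In this list, 2 genes, COL1A1 and COL1A2, are also in the list of fusion-repressed genes. Leaving out DMSO R9 or DMSO R10 as well as R8 left 3 and 1 called. SNAI2, a transcription factor of mesenchymal cells, had 108.5, 155.9 and 273 in treated libraries, against 237.4, 63.2 and 43.6 in DMSO R8, R9 and R10, and 643.2 in the parental library (1.57 ± 0.32, adjusted p = 0.0121). MMP2, a gelatinase (chromosome 16, 55389700 to 55506691), had 1298, 1482 and 1718, against 2000, 841.9 and 804 (0.86 ± 0.11, adjusted p = 0.00191). LOXL2, a collagen crosslinking oxidase, had 241.5, 302.9 and 458.5, against 638.7, 143.1 and 148.4 (1.10 ± 0.20, adjusted p = 0.00781). DMSO R8 lay above every treated library for MMP2 and LOXL2. Of 21 contractile and YAP target genes, 5 were called higher (11 without treated R1, 1 and 0 without DMSO R9 and R10), with CCN2, a matricellular YAP target, at 1.16 ± 0.24 (adjusted p = 0.0120) and ACTA2, smooth muscle actin, at 0.83 ± 0.13 (adjusted p = 0.00361). Of 7 muscle and fibroblast markers kept, 4 were called higher, and their summed level was 8178 to 9936 in treated libraries and 7331 to 10780 in DMSO libraries. MYOD1, MYOG and MYF5, the myogenic factors, were among the 6 of 13 not kept. Whether such markers had a part in the matrix result was not tested.

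Among signalling genes, ID3 and ID1 were both called higher. The list counts below stand beside 6.83% higher and 6.23% lower over all genes tested. ID3, an inhibitor of basic helix-loop-helix factors induced by BMP signals (chromosome 1, 23557918 to 23559794), had 460.3, 547.1 and 996.9 in treated libraries, against 1242, 81.8 and 102.7 in DMSO R8, R9 and R10, and 2045 in the parental library (2.74 ± 0.26, adjusted p = 0.000548). ID1, of the same family, had 83.6, 192.8 and 463.8, against 478.1, 48.0 and 69.2 (1.78 ± 0.50, adjusted p = 0.0426). Both genes were highest in DMSO R8 among the 9 libraries. They were among the 5 of 19 activin and TGF-beta genes called higher (26.3%), with 0 lower. The count was 3 higher without any 1 of treated R3, R4, R6 and R7. Of 17 receptor tyrosine kinases and ligands, 5 were higher (29.4%) and 0 lower (3 higher without treated R4, R6 or R7). They included KITLG, the ligand of KIT (1.26 ± 0.30, adjusted p = 0.0218), FGFR3 (0.86 ± 0.17, adjusted p = 0.0112) and PDGFRB (0.70 ± 0.097, adjusted p = 0.00254). UNC5B, a netrin receptor, had 416, 555.4 and 1058, against 1130, 229.4 and 157.8, and 3428 in the parental library (1.65 ± 0.32, adjusted p = 0.0104). It was 1 of 3 axon guidance genes of 19 called higher (15.8%), with EFNB1 and SLIT2, and 1 gene of the list was lower (5.26%). TCF7 was the only WNT list member of 15 called (0.85 ± 0.17, adjusted p = 0.0102), a share of 6.67%, near that over all genes tested. UCHL1 and NEFM, a neuronal hydrolase and a neurofilament, were the 2 of 13 neural genes called, both higher (15.4%). Of the 13, 8 had negative differences, and the list median was -0.0657. UCHL1 had 1135 in R1 and 481.6 to 647.3 in the other treated libraries. Against the DMSO libraries of time point 2, UCHL1 differed by 0.34 (adjusted p = 0.432) and NEFM by 0.86 (adjusted p = 0.0129).

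Several stress and immune lists had shares near those over all genes tested (6.83% higher and 6.23% lower): 9.68% and 3.23% of interferon-stimulated genes, 4% and 8% of hypoxia genes and 3.12% each way of cholesterol and fatty acid genes. Lists of 8 to 13 genes, as for antigen presentation, NF-kB and heat shock, had 0 to 3 genes called in a direction. Of 28 ATF4 and unfolded protein response genes, 9 were called higher and 2 lower (median 0.316), with 15 higher without treated R1, 1 and 0 without DMSO R9 and R10, and a median of -0.327 against the DMSO libraries of time point 2. HSPA5, the chaperone BiP, was higher by 0.51 ± 0.074 (adjusted p = 0.00291), and CEBPB, a transcription factor of the response, differed by -0.59 ± 0.088 (adjusted p = 0.00341). Of 31 interferon-stimulated genes, 3 were higher and 1 lower: TRIM22, also a p53 target, had 518.4, 1132 and 1524 in treated libraries, against 1180, 398.2 and 427.4 in DMSO R8, R9 and R10 (1.34 ± 0.30, adjusted p = 0.0186), and OAS1, a sensor of double-stranded RNA, had 387.8, 464.4 and 487, against 387, 828 and 761.2 (-0.83 ± 0.10, adjusted p = 0.00189). Antigen presentation gave 2 of 12 higher, B2M and CALR, and NF-kB genes 1 of 8 higher, CSF1, and 1 lower, SOD2. Of 24 immediate early genes, 0 were higher and 2 lower, MYC (-0.50 ± 0.070, adjusted p = 0.00270) and BTG2, and the list median was -0.372 here but 0.802 against the DMSO libraries of time point 2. Heat shock genes gave 3 of 13 higher and 1 lower, hypoxia and glycolysis genes 1 of 25 higher and 2 lower, and cholesterol and fatty acid genes 1 of 32 in each direction. Of 17 G1 cyclins, kinases and inhibitors CDKN1A was higher and CCND1 and MYC were lower, and MYCN differed by -0.09 ± 0.39 (adjusted p = 0.903).

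Ribosomal protein genes were lower in treated libraries almost without exception. Of 64, 0 were called higher and 60 lower without DMSO R8, and all 64 differences were negative. They ran from -0.83 to -0.12 with a median of -0.466 (-0.278 with all 9 libraries, 0 called). The share called lower was 93.8%, against 6.23% over all genes tested, of which 7457 of 14344 had negative differences. RPL22, of the large subunit (chromosome 1, 6185020 to 6209389), had 1240, 1393 and 1434 in treated libraries, against 1103, 2441 and 2425 in DMSO R8, R9 and R10, and 1331 in the parental library (-0.83 ± 0.066, adjusted p = 0.000279). RPS3A, of the small subunit, had 4338, 5541 and 5847, against 4830, 9158 and 9702 (-0.82 ± 0.10, adjusted p = 0.00196). Without DMSO R10 as well as R8, 3 of the 64 remained past the threshold, and 19 without R9 and R8, while the median stayed at -0.428 and -0.505. These genes have near-identical processed copies in the genome, and how reads were shared among copies is not stated.

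Structured noncoding RNAs were also lower, 6 of 9 called (66.7%) and 0 higher (median -0.673, and -0.474 with all 9 libraries). The list counts of this paragraph stand beside 6.83% higher and 6.23% lower over all genes tested. RNU4-2, the U4 spliceosomal RNA, had 267.8, 403.8 and 527.7 in treated libraries, against 289.1, 785.6 and 749 in DMSO R8, R9 and R10 (-1.01 ± 0.25, adjusted p = 0.0264). In the DMSO libraries of time point 2 it had 645.3 in R8, 3909 in R9 and 3420 in R10, a wider range than the 9 libraries of time point 1 held. The 6 calls became 2, 3, 3 and 1 without treated R2, R3, R4 and R7 and 0 without DMSO R9 or R10. RNY1, a Y RNA, differed by -1.13 ± 0.30 (adjusted p = 0.0330). Mitochondrially encoded genes gave 0 calls of 12 in either direction with a median of 0.524 (-0.786 against the DMSO libraries of time point 2), and ND5, of complex I, had 5412 in R1 and 12270 to 15360 in the other treated libraries, against 18944, 7856 and 7523 (0.65 ± 0.33, adjusted p = 0.211). Among replication-dependent histone genes 0 of 18 were higher and 1 lower, H2AC6 (5.56%, near the share over all genes tested). Of 11 long noncoding RNAs, 3 were higher: PVT1, the neighbour of MYC (1.32 ± 0.24, adjusted p = 0.00736), KCNQ1OT1, the imprinted antisense RNA (1.09 ± 0.26, adjusted p = 0.0239), and NEAT1, the scaffold of paraspeckles (0.93 ± 0.22, adjusted p = 0.0242). Whether counting used strand is not stated, so reads of KCNQ1OT1 and KCNQ1 cannot be told apart. GAS5 and SNHG1, hosts of small nucleolar RNAs, were the 2 called lower (18.2%, with 27.3% called higher).

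**Figure D4:**
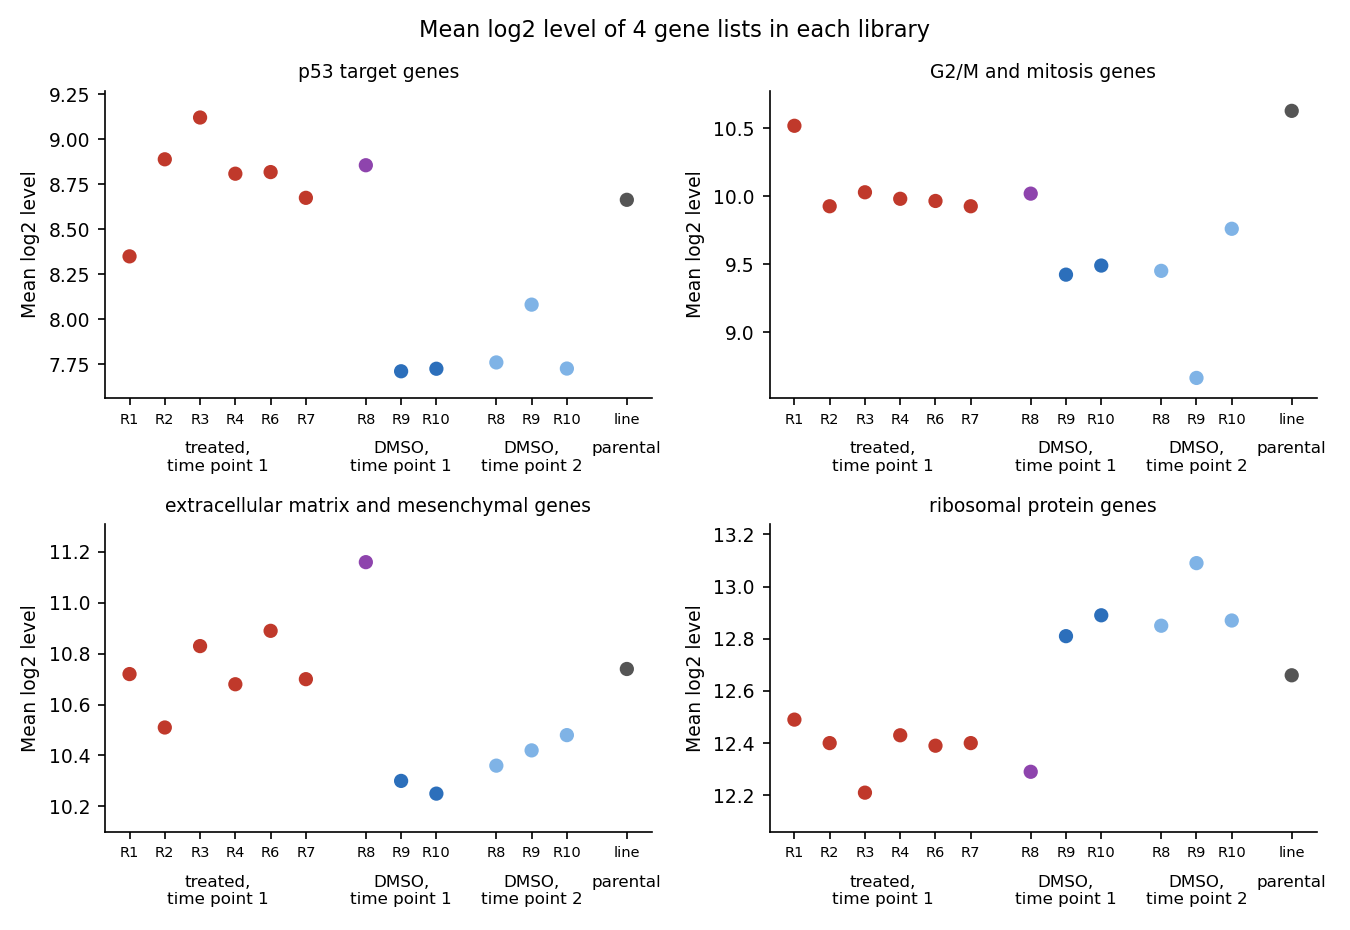
Mean log2 level (y axis) of the kept genes of 4 lists in each library (x axis; red, treated; purple, DMSO R8 of time point 1; dark blue, DMSO R9 and R10; light blue, DMSO at time point 2; grey, parental line). For the p53 targets the treated libraries sit at 8.35 to 9.12, DMSO R8 at 8.86 and DMSO R9 and R10 at 7.71 and 7.73, and for ribosomal protein genes the treated sit at 12.2 to 12.5, DMSO R8 at 12.3 and DMSO R9 and R10 at 12.8 and 12.9.

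The largest lower genes were low in the table. ABCG1, a sterol efflux transporter, had 17.2, 23.0 and 40.8 in treated libraries, against 14.6, 110.7 and 127.9 in DMSO R8, R9 and R10, and 6.35 in the parental library (-2.24 ± 0.28, adjusted p = 0.00180). PHYHIP had 1.09, 4.22 and 14.03, against 5.63, 43.6 and 25.8 (-2.76 ± 0.75, adjusted p = 0.0371), and MATK, a kinase that restrains SRC, had 3.02, 11.43 and 16.4, against 19.4, 37.5 and 46.1 (-2.02 ± 0.49, adjusted p = 0.0251). The treated range lay below DMSO R9 and R10 for each of them, as the naming rule required. It did so for 2709 of all 14344 genes tested (18.9%). SPATA17, SMKR1, DENND1C, SOX2-OT, HID1, GPR27 and the small nucleolar RNA SNORA74B followed at -1.77 to -1.53. KRT17, an intermediate filament gene, was among the higher ones with 88.2, 94.9 and 136.7, against 91.7, 16.4 and 24.4, and 85.7 in the parental library (2.29 ± 0.21, adjusted p = 0.000514).

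The untreated parental library resembled the treated arm at many of these genes. For each of the 1872 called genes it was noted whether a library lay nearer the mean of the treated libraries or that of DMSO R9 and R10. The library labelled DMSO R8 lay nearer the treated mean at 1846 (98.6%) and the parental library at 1394 (74.5%), against 189 (10.1%), 446 (23.8%) and 635 (33.9%) for DMSO R8, R9 and R10 of time point 2. The treated libraries of time point 3 ranged from 525 (28%) in R1 to 1321 (70.6%) in R3. Neither the parental nor the later libraries had entered the fit, but the genes were chosen for a difference between the same means. No such share was computed over all genes tested. Over all genes kept, the parental library lay 0.652 ± 0.080 log2 units from the treated libraries (SD, n = 6) and 0.71 ± 0.018 from the DMSO libraries (SD, n = 3), a difference of -0.0586 that did not pass a two-sided exact permutation test (p = 0.286, smallest possible 0.0119 over 84 splits). With 1 parental library, its own spread is unknown.

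The DMSO libraries of time point 2, taken from the same 3 lineages, served as a second comparison that was added after the data were seen and that confounds arm with time. It called 3391 of 14369 genes (23.6%), 1698 higher (11.8%) and 1693 lower (11.8%), and 5568 had an unadjusted p under 0.05 (38.8%). DMSO R9 of time point 2 stood apart, 0.563 and 0.471 from DMSO R8 and R10 of that time and 0.67 to 0.789 from the treated libraries, and its MKI67 was 1780, against 6417 and 6238 in R8 and R10. Without it 1276 genes were called (8.88%), 706 higher (4.92%) and 570 lower (3.97%). With it, of the p53 targets 18 of 28 were higher and 0 lower, of the mitosis genes 27 of 37 higher and 0 lower, and of the ribosomal protein genes 61 of 64 lower and 0 higher. Without it these counts were 17, 7 and 52. EWSR1 (0.35, adjusted p = 0.0177), MDM2 (0.28, adjusted p = 0.0272) and TUBB3 (0.84, adjusted p = 0.0171), which were not called against DMSO R9 and R10 of time point 1, passed against all 3 DMSO libraries of time point 2. CDKN1A had 62.1, 92.7 and 75.2 in DMSO R8, R9 and R10 of time point 2, with R8 no longer apart. This comparison shares its treated libraries with the main one.

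At later time points the arms were compared in 1 fit of 72 libraries. Library names begin with VDC at time points 5 and 9 and with EC, another drug course, at 4, 6, 8 and 10. The contrasts at these time points therefore do not follow 1 drug course over time. That fit called 0 genes at time point 1 as well, with 380 at an unadjusted p under 0.05. Run again without DMSO R8 of time point 1, it also called 0, with 1567 at an unadjusted p under 0.05. Its counts therefore cannot be set against the 1872. The fit of 72 libraries called 0 of 14370 genes (0%) at time points 4, 5, 6 and 8. There 3.17%, 1.23%, 3.88% and 9.85% had an unadjusted p under 0.05. It called 142 (0.988%) at time point 9, 0.431% higher and 0.557% lower, and 9 (0.0626%) at time point 10, 0.0348% higher and 0.0278% lower, with unadjusted shares of 14.2% and 11.3%. CDKN1A differed by 0.31 log2 units at time point 4, 0.35 at 5, -0.35 at 6, -1.81 at 8, -2.05 at 9 and -1.32 at 10, with adjusted p of 0.377 or more at each. At time point 8 the treated mean was 817.7, against a DMSO mean of 4177 that rested on lineage R9: the DMSO values were 935 in R8, 10116 in R9 and 1481 in R10. RPL22 differed by -0.06 at time point 4 and by 0.19 at 8, and KIF18B by 0.25 and -0.03. The lineages are the same cultures, so these libraries are repeated samples of them.

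**Figure D5:**
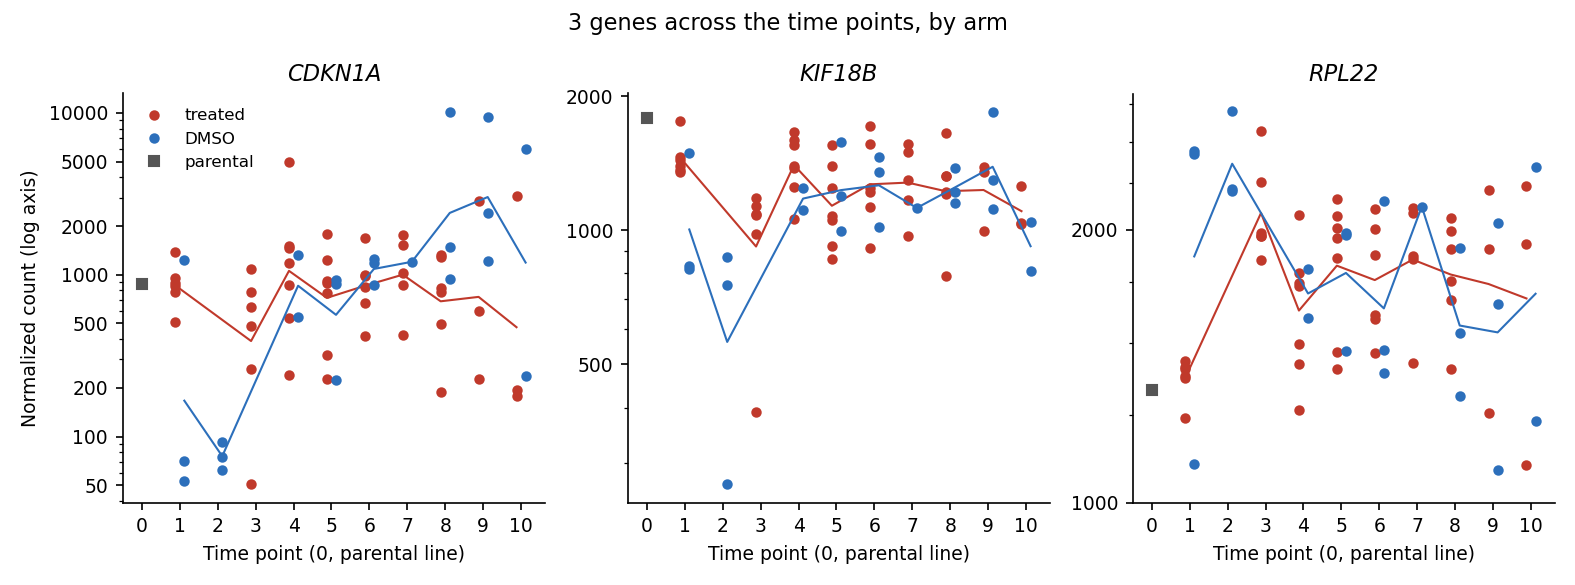
Quantile-normalized counts (y axis, log scale) of CDKN1A, KIF18B and RPL22 by time point (x axis) in treated (red) and DMSO (blue) libraries, with lines through the mean of the log values and the parental library (grey) at 0. At time point 1 the 6 treated CDKN1A values lie at 510 to 1387 and the DMSO values at 1229, 53 and 71.2 (R8, R9 and R10), and from time point 4 the arms overlap.

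Transcript length was checked in 4 bins of near-equal size over the 13719 genes with a length (95.6% of those kept). The median log2 difference was -0.0342 in the bin of shortest genes and -0.000664 in the longest, and 4.63% of the shortest and 8.31% of the longest were called higher, with 6.79% and 6.33% called lower.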

How the data were processed

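The labels' protocols give Qiagen AllPrep for RNA extraction and STAR for both alignment and counting, and featureCounts and GRCh38 are listed beside STAR in the submitters' processing notes, no version given. What the authors deposited is a signal: counts already quantile-normalized, 36233 genes by 73 columns. Depth and counting error are therefore unknown, and how the normalization was run is not given in the sources used here. Groups came from the labels. Each fit took log2(value + 1) of genes averaging 10 or more over its libraries and used limma's trend method (3.58.1, under R 4.3.3, with data.table, version 1.17.8), unpaired, with Benjamini-Hochberg adjustment over all genes kept and a threshold of 0.05. Plots were made in matplotlib (3.10.9, Python 3.11.15). Gene coordinates came from GENCODE, and promoters from RefSeq.

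Alternatives were the pseudocount (10 and 0.1), the filter (none and 50), 2 other scalings, a shared fit, array weights, robust moderation and leaving out each library. The 41 gene lists (1036 of 1040 entries found, 41 under another symbol), the members and the tests were chosen with earlier results of these data known. Named genes were, in each fit, the 10 largest called differences in each direction whose arms did not overlap. Where fewer than 5 passed, they were the 10 of smallest p among genes whose arms did not overlap. Each list added up to 3 called members, or the 2 of smallest p, and a set of always-named genes (EWSR1, FLI1, NR0B1, TOP2A, TOP2B, ABCB1, SLFN11, CDKN1A, MDM2, MKI67, MYC, MYCN, TUBB3, ALDH1A1 and GSTP1) was added where kept. CAV1 and PURPL, other list members and genes with promoter windows were named after their values were seen. The comparison with DMSO at time point 2, with and without its R9, was added after the data were seen. A gene that the naming rule selects is not reported here. Functions were tested on simulated data.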

Additional observations from a re-analysis of the deposited data

Results flagged for a closer look

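Among 146 groups of 6 treated values examined for named genes, 28 held a library whose gap to its nearest neighbour took up more of the range than Dixon's 95% critical value allows. Chance alone marks about 1 in 20 groups. In 22 of the 28 the library was treated R1, and no explanation was tested.

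R1 was the highest treated library for MKI67 at 14660, TOP2A at 11040, MYBL2 at 3554, KIF18B at 1755, KIF2C at 1629, CLSPN at 1384, KIF4A at 1330 and AURKA at 806.7. It was also the highest for TKT at 3593, HSPB1 at 1213, UCHL1 at 1135, ITGB2 at 546.4, STRIP2 at 133.8 and ALDH1A1 at 99.04. R1 was the lowest for the p53-linked genes BTG2 at 2686, TRIM22 at 518.4, TNFRSF10D at 86.6 and EDA2R at 20.04, for the mitochondrially encoded ND5 at 5412 and ATP8 at 190.8, and for BCL11B at 15520 and SPATA17 at 1.85.

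The other 6 values belonged to 5 libraries. B2M was lowest in R2 at 2892 and CFAP54 in R3 at 26.4. SOX2-OT was lowest in R4 at 2.86 and KITLG in R7 at 24.8. In R6, RPL22 was lowest at 1240 and FANCF at 303.6.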

How the results depend on the processing

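With all 9 libraries the count of called genes was 0, and it became 5546 with array weights (which gave treated R1 0.184 and DMSO R8 0.159) and 3391 against DMSO at time point 2 (1276 without DMSO R9 of that time). Leaving out 1 library gave 0 to 1872, with 1872 only without DMSO R8. In the fit without DMSO R8 the count of 1872 became 0 in the shared fit (1567 genes with an unadjusted p under 0.05), 5728 with array weights, 3391 against DMSO at time point 2, and 95 to 4903 on leaving out a further library. The cause was not tested. Pseudocounts, filters, scalings and robust moderation kept the count within 1.5 times, though pseudocounts moved the size of low genes by more. The distance from the parental library kept its sign under every setting run, from -0.0744 to -0.0289. Of 125 named results without DMSO R8, 109 lost the call in the shared fit. The other 16 had no call to lose.

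Against DMSO at time point 2 the sign turned for BTG2 (0.089), ATP8 (-0.35), ND5 (-0.58), CD79A (0.018), CDH5 (0.018), FLI1 (0.14), TOP2B (-0.013), SLFN11 (0.00014) and MYCN (0.26), and with array weights for TOP2B (-0.00909). On leaving out 1 library, differences that missed the threshold spanned 0, from -0.015 to 0.041 for TOP2B, -0.029 to 0.18 for TUBB3, -0.69 to 0.11 for CDH5 and -0.24 to 0.076 for MYCN. No paired analysis was possible because the treated and DMSO lineages share no replicate number. Depth is unknown, so the precision of low genes cannot be given.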
